A study of Mus musculus with 2 samples.

Results

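The arginine and polyamine genes are a set of 10 listed genes around *Arg1*, and they were read in cerebellar sections that carried tumors grown from HP organoids. Genes were chosen by name, as the enzymes and the transporter that make, take up or use arginine and the enzymes that follow arginase into the polyamines. Probes against 9 of the 10 were among the 19465 genes counted, and *Srm*, the enzyme that makes spermidine, had none. The listed genes measured were *Arg1*, *Arg2*, *Odc1*, *Ass1*, *Asl*, *Nos2*, *Slc7a2*, *Sms* and *Sat1*, and none of them was at 0 in any region of either section.

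Arginine stands at a branch point. The arginases ARG1 and ARG2 split it into urea and ornithine, whereas inducible nitric oxide synthase, the product of *Nos2*, turns it into nitric oxide and citrulline, so these enzymes compete for the same substrate. Ornithine is decarboxylated by ODC1 to putrescine, which is extended to spermidine and spermine, and SAT1 acetylates these polyamines for breakdown or export. High *Arg1* is a widely used mark of tumor-associated and alternatively activated macrophages, which deplete arginine that T cells need.

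The series holds 2 formalin-fixed sections, each of 1 mouse and labelled Replicate 1 and Replicate 2 (sections 1 and 2 here), with genotype HP and no treatment for both. HP organoids are mouse mammary tumor organoids with mutant HER2 and mutant PIK3CA alleles, and per the study's methods they were labelled with luciferase, expanded in culture and injected with a needle into the cerebellum of immunocompetent C57BL/6J mice of the same strain, so the tumors did not arrive through the blood. The titles call the organoids HP-F1 +cre for section 1 and HP-B6 +cre for section 2, whereas the cell line field says B6-HP for both, and neither the age nor the sex of the mice was given in the labels. There was no tumor-free or treated section, so every comparison is between regions of the same sections.

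The assay was Visium CytAssist, in which paired probes that bind a transcript side by side are ligated, transferred to spots with a positional barcode each and counted by unique molecular identifiers (UMIs). A spot is a small patch of tissue that can hold several cells of different types. The sections had 3406 and 4017 spots under tissue with 63986887 and 71878333 UMIs, and the median spot held 9733.5 and 12390 UMIs. Of their barcodes 3096 were shared, since both arrays carry the same set of barcoded positions, and the spots were kept apart by section. Levels are given in CPM, the UMIs of a gene per 1000000 UMIs. Probes of different genes capture with different efficiency, so levels were compared between regions and not between genes, and the ratio of *Arg1* to a macrophage list given later is compared only between distances.

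The tumor border was drawn in each section from the summed levels of tumor markers and neural markers, without any of the 10 genes, and each spot was placed by its distance from that border in steps of the hexagonal array, negative on the tumor side. Spots more than 5 steps inside were taken as tumor interior (584 spots in section 1 and 761 in section 2), spots more than 5 steps outside as neural tissue (2141 and 2389), and the rest as the border zone. Border zone spots with at least 500 CPM and 5 UMIs of *Arg1* were called the Arg1-high edge (240 and 275 spots), and the others were the other border spots (346 and 500). The lowest *Arg1* level inside this class was 504.3 CPM in section 1 and 503.6 CPM in section 2, and the highest outside it was 499.1 and 858.9 CPM, the latter in a spot with fewer than 5 UMIs. Levels of 400 to 600 CPM were held by 63 and 55 border zone spots, so the class is a range and not a cell type.

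The neural, epithelial and stromal lists drew the border, so their levels describe the sides and cannot check them, and the tumors of the sections differed in them. The neural list summed to 26070 and 26608 CPM in the neural tissue of sections 1 and 2 and to 677.2 and 1229 CPM in the tumor interior. The epithelial list (*Epcam*, keratins and claudins) summed to 12744 CPM in the interior of section 2 but only to 45.1 CPM in that of section 1, against 18.0 CPM in the neural tissue of the same section. The collagen-rich stromal list summed to 59638 CPM in the interior of section 1 and to 508.8 CPM in that of section 2. What is called tumor interior is therefore a collagen-rich mass nearly without epithelial markers in section 1 and an epithelial tumor in section 2, and values of the sections are given side by side throughout. The border itself was cut at a log2 ratio of tumor over neural markers of -0.40 in section 1 and -2.78 in section 2. At 1 step inside, section 1 had 12977 CPM of the stromal and 7708 CPM of the neural list. Section 2 had 2383.5 CPM of the epithelial and 9172 CPM of the neural list there. The same step or side is thus not the same mix of tissue in both sections. The macrophage list, of which all 10 genes had probes and were above 0 in every region, ranged from 539.5 to 2494 CPM in the interior, from 1756 to 2627 CPM at the Arg1-high edge, from 1016 to 1950 CPM in the other border spots and from 211.1 to 393.5 CPM in neural tissue.

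*Arg1*, the cytosolic arginase (chr10:24915207-24927470; gene positions are those of RefSeq on GRCm38.p6, the assembly also called mm10), formed a band along the tumor border in both sections. By distance alone, its level was highest 2 steps inside the border in each section, at 1177 CPM (95% Poisson interval 1125 to 1232) in section 1 and 1332 CPM (1279 to 1387) in section 2. At 5 steps outside it was 9.59 CPM in section 1 and 31.1 CPM in section 2. At 6 steps inside it was 97.6 CPM in section 1 and 385.8 CPM in section 2, so on the neural side the band ended within 5 steps in both sections, whereas on the tumor side section 2 kept a level of at least 278.0 CPM over the 15 steps inside. At 15 steps inside, the level was 2.31 CPM in section 1 and 468.2 CPM in section 2. Spots hold mixtures of cells, so more cells of a type and more RNA per cell cannot be told apart here or in any result that follows.

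**Figure D1:**
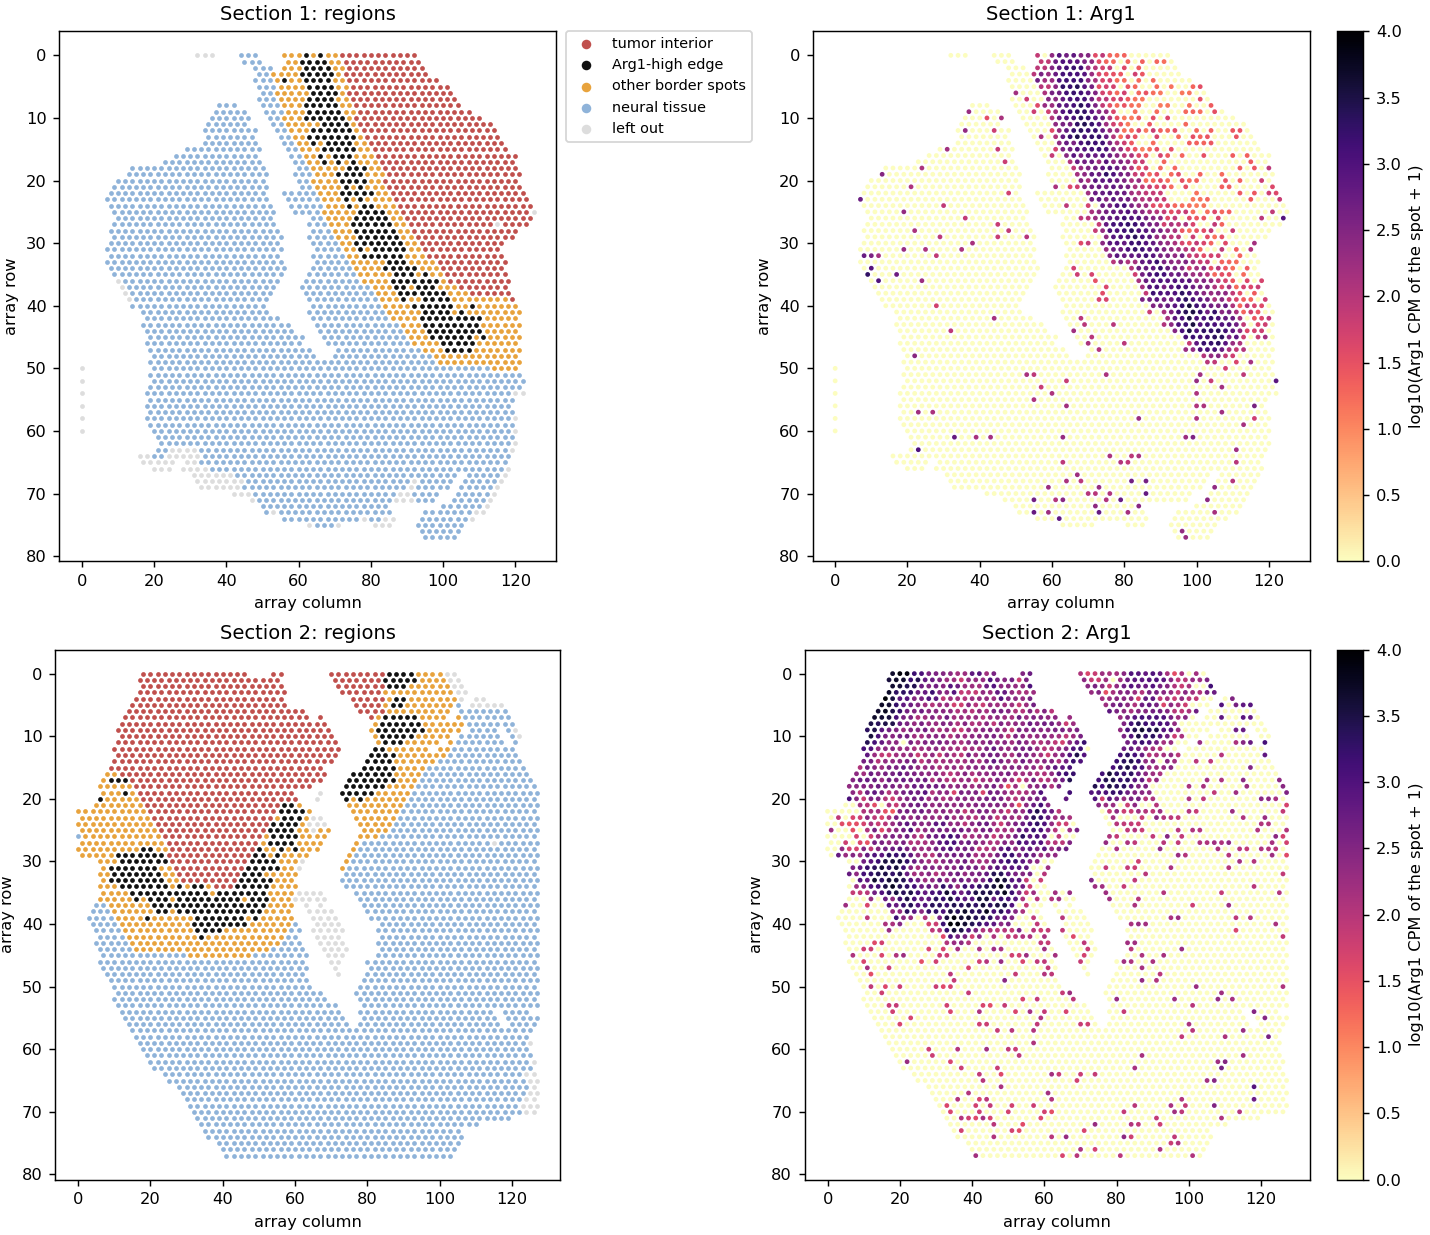
Spots of section 1 (top) and section 2 (bottom) at their row and column on the array, colored by region (left) and by log10 of the *Arg1* level in CPM plus 1 (right, one scale for both sections). A dark band of *Arg1* followed the border in both sections, and in section 2 *Arg1* also filled the tumor interior, where 134 of 761 spots passed the 500 CPM threshold, against 0 of 584 in section 1.

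The spots above the *Arg1* threshold lay differently in the sections, with sides and steps taken from each section's own border, which was cut at a different ratio. In section 1 all 240 of them lay in the border zone, from 4 steps inside to 4 steps outside, with 147 on the tumor side and 93 on the neural side, and 238 of them (99.17%) touched each other in a single group. In section 2 the 275 edge spots ran from 5 steps inside to 2 steps outside, with 237 on the tumor side and 38 on the neural side, and they fell into 8 groups of which the largest held 186 (67.64%). The share of spots above the threshold was highest 2 steps inside in both, at 84.5% of 58 spots and 75.0% of 80 spots. None of the 2141 neural spots of section 1 and none of the 2389 of section 2 passed it, which allows shares of up to 0.140% and 0.126%. In the tumor interior, 0 of 584 spots of section 1 passed it, which allows a share of up to 0.514%, and 134 of 761 (17.61%, exact binomial interval 14.97% to 20.5%) of section 2. These intervals and limits cover counting error only and hold for the border as drawn. With the border from the neural list alone, 8 spots above the threshold lay in neural tissue in section 1 and 19 in section 2. With a border zone of 3 steps, 1 lay in the neural tissue and 9 in the interior of section 1. At the median depth of neural spots (7154 and 9433 UMIs), the minimum of 5 UMIs was also stricter than 500 CPM.

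Within the interior of section 2, *Arg1* was higher near open margins of the tissue. Spots 1 to 3 steps from an array position without tissue had 938.3 CPM of *Arg1* and 35.96% of these 178 spots passed the threshold, whereas the 583 spots farther from such a margin had 312.0 CPM and 12.01%. The macrophage list was likewise higher near the open margins of section 2, at 828.6 CPM against 401.4 CPM. Section 1 had no such difference toward higher values, with 9.58 CPM of *Arg1* in 138 spots near open margins and 28.0 CPM in the 446 others. This split was made after the map of *Arg1* had been seen, and it is a description of 1 section each.

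Along the border itself *Arg1* was uneven. Spots from 3 steps inside to 1 step outside were divided by array row into 4 equal parts. In section 1 the share above the threshold was 93.22%, 77.97%, 91.53% and 49.15% of 59 spots each, from the lowest array rows to the highest. The parts of section 2 held 84 spots each, of which 60.71%, 29.76%, 67.86% and 72.62% passed. *Arg1* in these parts ranged from 708.4 to 1306 CPM in section 1 and from 412.9 to 1938 CPM in section 2. *Nos2* did not follow this order, since its highest part in section 1 was the third (44.4 CPM) and in section 2 the first (28.0 CPM).

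The course of *Arg1* across the border differed from that of the summed macrophage list. In section 1 the list held between 2179 and 2421 CPM from 15 to 4 steps inside the border while *Arg1* went from 2.31 to 355.9 CPM. *Arg1* UMIs per 1000 UMIs of the macrophage list were 7.21 at 10 steps inside, 469.9 at 2 steps inside and 10.4 at 5 steps outside. In section 2 the same ratio was 852.4 at 10 steps inside, 1010 at 3 steps inside, 890.0 at 2 steps inside and 29.7 at 5 steps outside. Over the 15 steps on each side the ratio thus peaked within 3 steps of the border in both sections. That was not the highest ratio of section 2, since its spots more than 15 steps inside, when summed, had a ratio above 1010. Deep in the tumor the ratio was low in section 1. In section 2 it fell to 434.3 at 7 steps inside and was between 671.0 and 921.1 from 15 to 9 steps inside. Members of the list moved apart from the interior to the Arg1-high edge of section 1. *Cd68* went from 568.5 to 1524 CPM, and *Itgam* and *Fcgr1* were also higher at the edge. *Csf1r* went from 496.5 to 228.6 CPM and *Aif1* from 530.7 to 223.9 CPM, and the rest of the list was lower too. In section 2 all members were higher at the edge. The sum and the ratio are thus no measure of macrophage number.

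**Figure D2:**
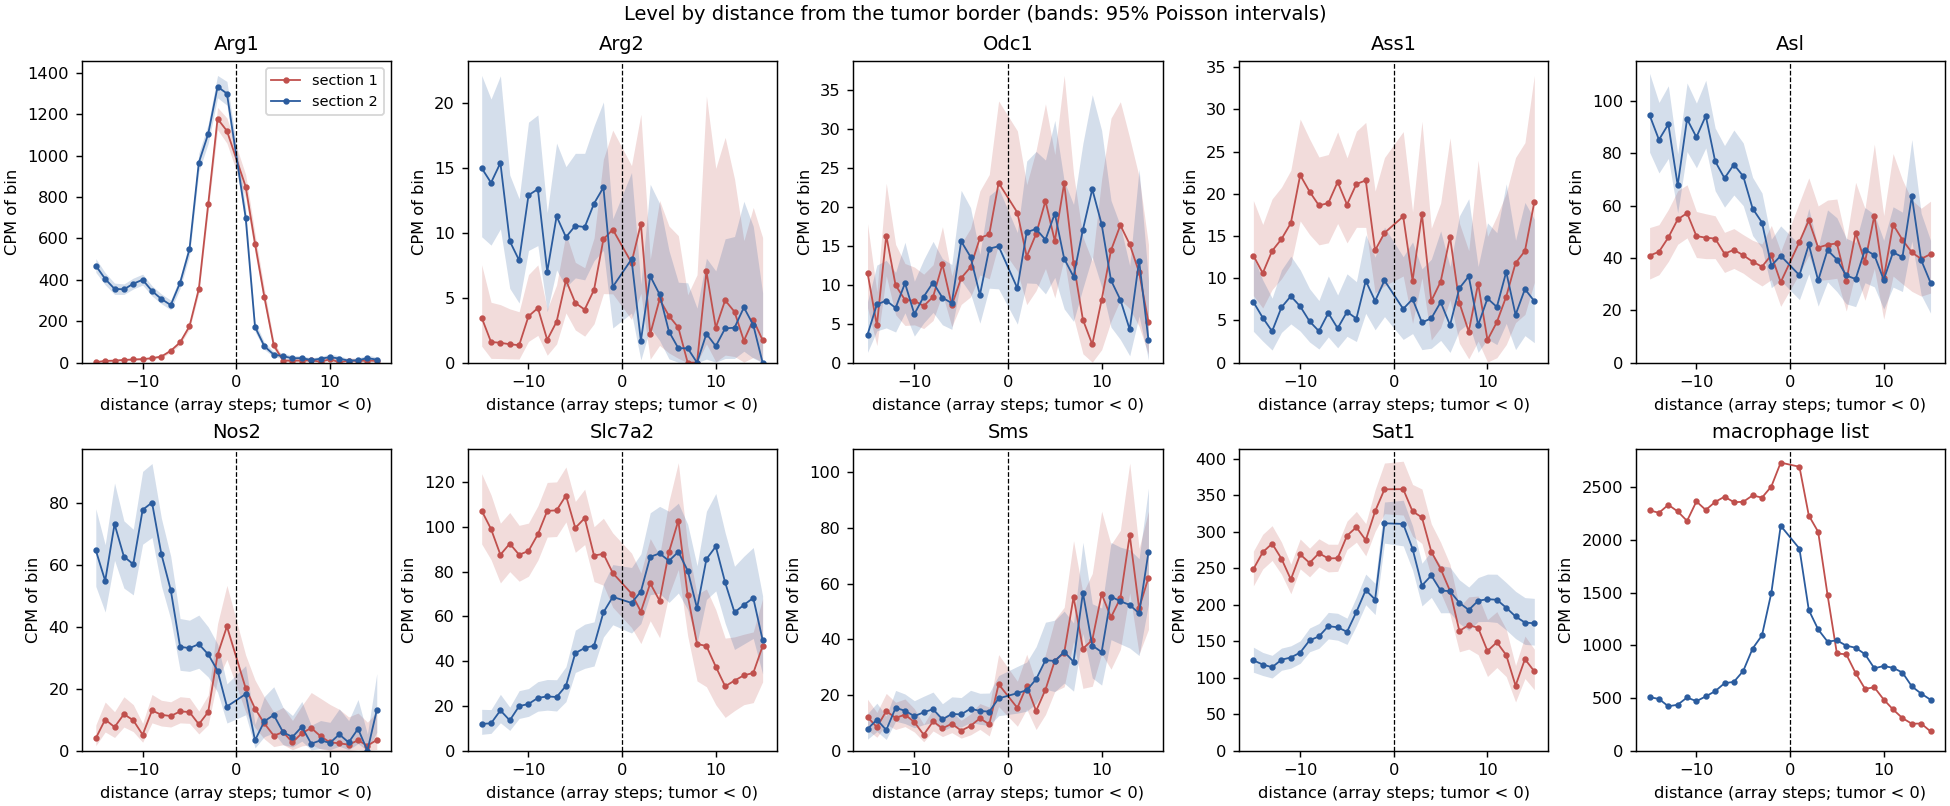
Level in CPM (vertical axis, from 0) by distance from the tumor border in array steps (horizontal axis, tumor below 0, dashed line at the border) for the 9 measured genes and the summed macrophage list, in section 1 (red) and section 2 (blue), with 95% Poisson intervals of the gene counts as bands. *Arg1* peaked at 1177 and 1332 CPM 2 steps inside the border, *Sat1* peaked at the border in both sections, *Sms* rose outward, and *Nos2*, *Asl*, *Arg2* and *Slc7a2* took different courses in the tumor of each section.

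For tests, the spots of a region were added up within each section, which gave 8 sums of 5605964 to 31392008 UMIs, and the regions were compared with the quasi-likelihood test of edgeR, with a term for the section and Benjamini-Hochberg adjustment over the 19077 genes that passed its filter on low counts. All 9 measured genes passed it. Levels of the summed regions are CPM scaled by TMM factors, and a fold within 1 section was taken after adding 0.5 CPM. Because *Arg1* chose the edge spots, its values at the edge carry no test. The comparisons share regions, so their results are not independent of each other.

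*Arg1* was at 1077 CPM at the edge of section 1 and at 1785 CPM at that of section 2. In the other border spots it was at 185.6 and 153.8 CPM, in the tumor interior at 27.7 and 475.2 CPM and in neural tissue at 6.81 and 13.4 CPM. The order of the regions was edge, other border, interior and neural tissue in section 1 and edge, interior, other border and neural tissue in section 2. The interior and the other border spots overlap between the sections, and so have no order across them.

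The tumor interior and the neural tissue were drawn without *Arg1*, so its difference there was put to the test. Yet *Arg1* and the region rules were chosen with earlier results of these data known. The p-values of *Arg1* here and for the border zone are thus no independent support. *Arg1* was 3.86-fold higher in the interior than in neural tissue in section 1 and 34.1-fold higher in section 2, a log2 fold change of 4.19 ± 1.11 (SE, 2 sections, adjusted p = 0.0301). This call was lost with the border drawn from the neural list alone, where the log2 fold change was 2.90 (adjusted p = 0.122), and with a border zone of 8 steps, where it was 4.13 (adjusted p = 0.0629). In section 1 the excess lay in the outer part of the interior. There *Arg1* fell from 97.6 CPM at 6 steps inside to 21.4 CPM at 9 steps and 2.31 CPM at 15 steps inside. The whole border zone, drawn by position alone, had 511.7 CPM of *Arg1* in section 1 and 734.6 CPM in section 2. That was higher than neural tissue by a log2 fold change of 6.09 ± 1.15 (edgeR adjusted p = 0.0481), a call that was lost without the block (adjusted p = 0.0699), with the border from the neural list alone (0.0833) and with 8 steps (0.0758). Against the tumor interior, with 27.8 and 477.5 CPM in this fit, the log2 fold change of the border zone was 2.12 ± 1.04 (edgeR adjusted p = 0.406), which did not pass.

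*Nos2*, the inducible nitric oxide synthase that competes with arginase for arginine (chr11:78920787-78960226), was lowest in neural tissue in both sections. It was at 4.72 and 3.91 CPM in the neural tissue of sections 1 and 2, at 10.5 and 14.1 CPM in the other border spots, at 22.1 and 35.3 CPM at the Arg1-high edge and at 10.4 and 70.9 CPM in the tumor interior. The edge exceeded neural tissue 4.32-fold in section 1 and 8.13-fold in section 2, with no overlap of the sections, a log2 fold change of 2.61 ± 0.74 (edgeR adjusted p = 0.0489). That call is narrow: it was lost under 7 of the alternative settings, with adjusted p between 0.0506 and 0.0692. The interior exceeded neural tissue by a log2 fold change of 2.86 ± 0.76 (edgeR adjusted p = 0.0311).

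Between the edge and the tumor interior the sections went opposite ways for *Nos2*. The edge was 2.08-fold higher than the interior in section 1 and 0.502 times as high in section 2, and the pooled log2 fold change of -0.25 ± 0.70 (edgeR adjusted p = 0.891) is a mean of opposite values. By distance, *Nos2* of section 1 peaked 1 step inside the border at 40.1 CPM (95% Poisson interval 29.5 to 53.3) and was 4.03 to 12.99 CPM from 15 to 3 steps inside. In section 2 it had no such peak, but fell from 80.1 CPM (68.8 to 92.7) at 9 steps inside to 25.8 CPM at 2 steps inside and 3.35 CPM at 2 steps outside. Whether the difference between the sections is more than that of 2 mice cannot be tested with 1 section of each tumor.

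*Nos2* and *Arg1* went together among spots of the border zone, but not in every division of the tissue. When the border zone spots were grouped by their own *Arg1*, *Nos2* of section 1 was 9.49 CPM (7.21 to 12.3) below 250 CPM of *Arg1*, 13.9 CPM between 250 and 500, 17.6 CPM between 500 and 1000 and 28.6 CPM (22.5 to 35.9) at 1000 or more. In section 2 the same groups had 13.1 CPM (10.4 to 16.2), 18.6, 29.6 and 34.6 CPM (28.7 to 41.3). The order of the groups was the same in both sections and the intervals of the lowest and highest group did not overlap, although these intervals cover counting error and spots of 1 section are not replicates. On the tumor side of the border alone, Arg1-high spots had 25.2 CPM of *Nos2* and the others 11.8 CPM in section 1, and 34.2 and 21.2 CPM in section 2. Within the interior of section 2, the 134 Arg1-high spots had 79.9 CPM (72.1 to 88.3) and the other 627 had 58.8 CPM (55.9 to 61.8). The same interior divided by open margins went the other way, with 48.5 CPM of *Nos2* in the spots near them, where *Arg1* was higher, and 64.8 CPM in the rest. Of the 4 parts of the border of section 2, the third had 1599 CPM of *Arg1* and the lowest *Nos2* (16.8 CPM).

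*Arg2*, the mitochondrial arginase, had few counts, with 38 to 402 UMIs per sum (chr12:79130788-79156301). It was at 2.63 and 1.78 CPM in neural tissue, 3.74 and 6.81 CPM in the other border spots, 9.27 and 11.7 CPM at the edge and 3.54 and 14.8 CPM in the tumor interior. The edge was above neural tissue 3.12-fold and 5.35-fold, but the log2 fold change of 2.17 ± 0.64 did not pass (edgeR adjusted p = 0.0549). It did pass with RLE factors (adjusted p = 0.0470), with DESeq2 (0.00261) and with an *Arg1* threshold of 1000 CPM (0.0401). The interior against neural tissue gave 1.80 ± 0.64 (edgeR adjusted p = 0.0708), with a 1.29-fold difference in section 1 and 6.71-fold in section 2. Like *Nos2*, *Arg2* was higher in border spots with more *Arg1*: from the group below 250 CPM to that at 1000 or more it went from 3.60 CPM (2.26 to 5.45) to 12.6 CPM (8.67 to 17.7) in section 1 and from 6.38 CPM (4.56 to 8.68) to 12 CPM (8.65 to 16.2) in section 2. The intervals of these groups were apart in section 1 and overlapped slightly in section 2. On the tumor side of the border alone, Arg1-high spots of section 1 had 8.71 CPM of *Arg2* (6.16 to 11.95) and the others 4.19 CPM (2.76 to 6.09). In section 2 they had 11.4 CPM (8.65 to 14.7) and 9.76 CPM (6.97 to 13.3), with largely overlapping intervals.

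**Figure D3:**
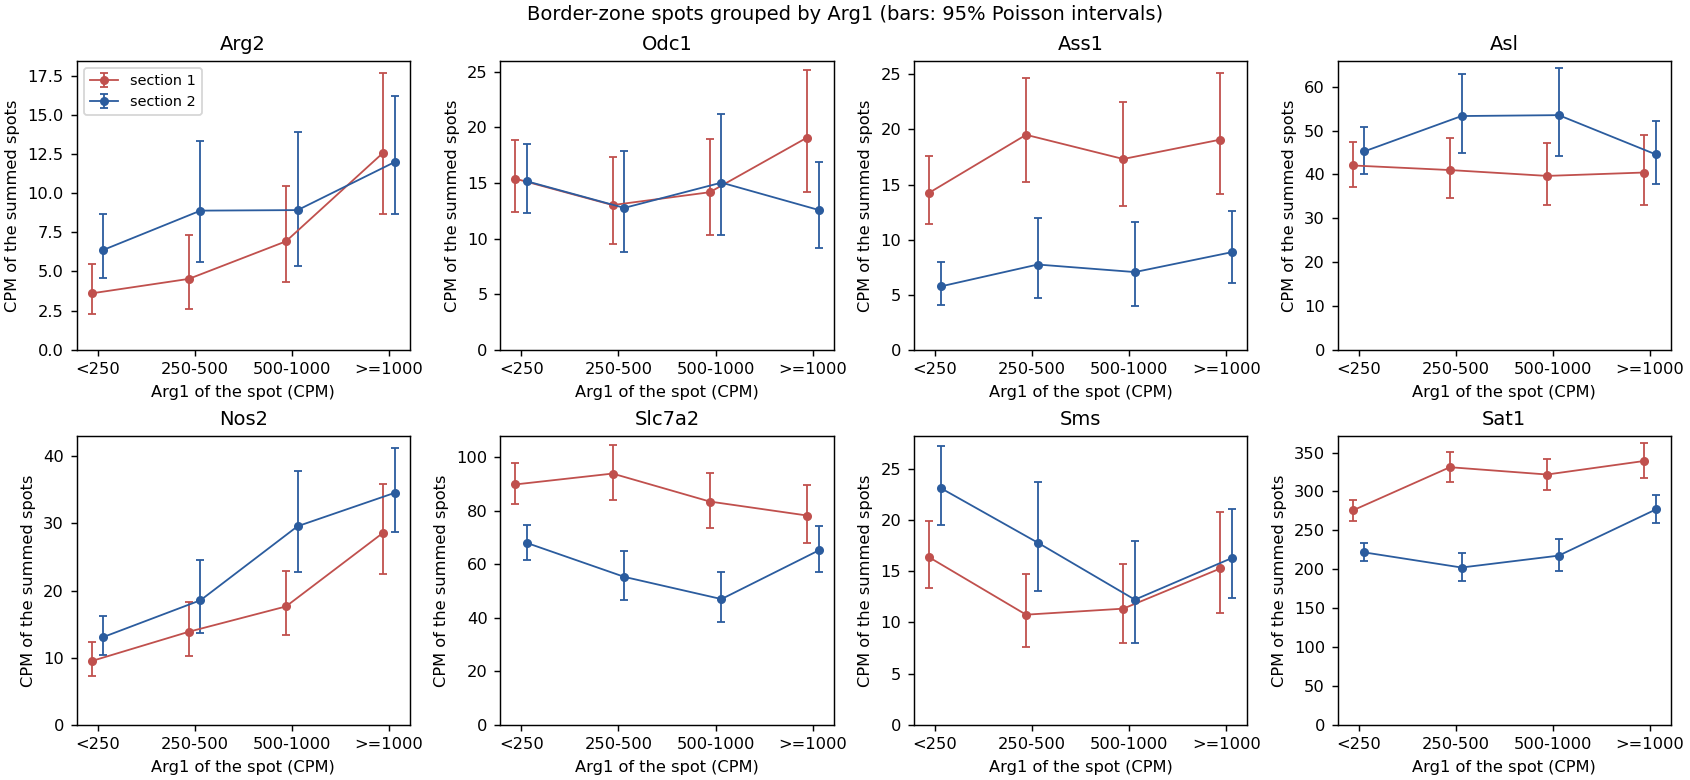
Level in CPM (vertical axis, from 0) of the 8 measured genes other than *Arg1* in border zone spots grouped by the *Arg1* level of the spot (horizontal axis, CPM), in section 1 (red) and section 2 (blue); points are summed spots and bars 95% Poisson intervals. *Nos2* went from 9.49 to 28.6 CPM and from 13.1 to 34.6 CPM across the groups and *Arg2* from 3.60 to 12.6 CPM and from 6.38 to 12 CPM, whereas *Odc1*, *Asl* and *Slc7a2* had no shared order in the sections. *Sat1* was also higher in the highest than in the lowest group (339.2 against 275.6 CPM and 276.9 against 221.6 CPM), without a steady rise between them. For *Ass1* and *Sms* the intervals of these groups overlapped in both sections.

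*Slc7a2*, which encodes the cationic amino acid transporter CAT2 and brings arginine into cells (chr8:40862341-40922070), had opposite patterns in the tumors. It was at 113.9 CPM in the interior of section 1 and at 21.9 CPM in that of section 2, against 36.3 and 47.7 CPM in neural tissue. The interior was thus 3.11-fold higher than neural tissue in section 1 and 0.465 times as high in section 2, and the pooled log2 fold change of 0.41 ± 0.64 did not pass (edgeR adjusted p = 0.625). At the edge it was at 79.2 and 63.0 CPM and in the other border spots at 86.7 and 61.5 CPM, so spots with and without high *Arg1* at the border had like levels. The edge against neural tissue gave 0.68 ± 0.62 (edgeR adjusted p = 0.477). By distance, *Slc7a2* of section 2 went from 11.98 CPM at 15 steps inside to 68.7 CPM at 1 step inside and, within 15 steps of the border, was highest 10 steps outside (91.2 CPM).

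*Ass1* (chr2:31470270-31520670) and *Asl* (chr5:130011258-130024381), whose products in turn join citrulline with aspartate and release arginine, did not have the band of *Arg1*. *Ass1* was at 17.7 and 8.83 CPM at the edge, 15.4 and 6.05 CPM in the other border spots, 18.2 and 7.08 CPM in the tumor interior and 14.4 and 8.65 CPM in neural tissue. It was higher in section 1 than in section 2 in all 4 regions, by more than it differed among the regions of either section. *Asl* was at 39.1 and 51.7 CPM at the edge, 39.6 and 45.7 CPM in the other border spots, 50.4 and 97.6 CPM in the interior and 36.2 and 40.0 CPM in neural tissue. The interior exceeded neural tissue 1.39-fold and 2.42-fold, a log2 fold change of 0.90 ± 0.24 (edgeR adjusted p = 0.0285) that did not pass without the block (adjusted p = 0.0852) or with library size as the only scaling (0.103). At the edge *Asl* was 0.777 and 0.532 times its level in the interior, which did not pass (log2 fold change -0.67 ± 0.24, edgeR adjusted p = 0.252). Its level against neural tissue at the edge was 0.23 ± 0.24 on the log2 scale (edgeR adjusted p = 0.524).

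Of the genes that follow arginase into the polyamines, *Odc1*, the ornithine decarboxylase (chr12:17544808-17551502), had its highest region level at the Arg1-high edge in both sections, although by distance alone, within 15 steps of the border, its highest level was 1 step inside the border in section 1 (23.0 CPM) and 9 steps outside in section 2 (22.2 CPM). It was at 16.0 and 14.6 CPM at the edge and at 13.8 CPM in the other border spots of both sections, against 10.0 and 8.66 CPM in the tumor interior and 8.95 and 8.57 CPM in neural tissue. The edge exceeded neural tissue 1.75-fold and 1.66-fold, but the log2 fold change of 0.80 ± 0.23 fell just short (edgeR adjusted p = 0.0510). It passed with DESeq2 (adjusted p = 0.00793), with an *Arg1* threshold of 1000 CPM (0.0498) and with a border zone of 8 steps (0.0442). Against the interior the edge gave 0.71 ± 0.23 (edgeR adjusted p = 0.220). *Odc1* had no order by the *Arg1* of the border spots that both sections shared.

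*Sms*, the spermine synthase, was lower at and in the tumor than in neural tissue in both sections (chrX:157443851-157492287). It was at 57.7 and 58.2 CPM in neural tissue, 13.6 and 20.8 CPM in the other border spots, 12.8 and 15.7 CPM at the edge and 10.7 and 13.6 CPM in the tumor interior. The edge was at 0.229 and 0.277 times the level of neural tissue, a log2 fold change of -2.04 ± 0.23 (edgeR adjusted p = 0.0051), and the interior gave -2.27 ± 0.22 (adjusted p = 0.00118). By distance it went from 9.49 and 14.0 CPM at 2 steps inside to 32.4 and 32.2 CPM at 5 steps outside and 62.2 and 71.3 CPM at 15 steps outside. It thus still rose far outside the *Arg1* band. The neural list went the same way, from 4653 and 6186 CPM at 2 steps inside to 22739 and 19151 CPM at 5 steps outside, and its part in the result was not tested.

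*Sat1*, the spermidine and spermine acetyltransferase (chrX:155213126-155216449), was highest at the border. It was at 321.9 and 274.1 CPM at the edge, 281.0 and 207.4 CPM in the other border spots, 283.1 and 152.0 CPM in the interior and 102.5 and 140.0 CPM in neural tissue. The edge exceeded neural tissue 3.13-fold and 1.95-fold, a log2 fold change of 1.26 ± 0.33 (edgeR adjusted p = 0.037), which was lost without the block (adjusted p = 0.0545) and with the border from the neural list alone (0.0756). The interior was 2.75-fold higher than neural tissue in section 1 but 1.09-fold in section 2, and its log2 fold change of 0.78 ± 0.33 did not pass (edgeR adjusted p = 0.110). By distance *Sat1* peaked 1 step outside the border in section 1 (358.7 CPM, 323.2 to 397) and 1 step inside in section 2 (311.9 CPM, 284.6 to 341), where the macrophage list also had its peak in section 2 and lay within 1 step of its peak in section 1. The list peaked at 2732 and 2133 CPM, 1 step inside in each section. Its part in the peak of *Sat1* was not tested. Among border zone spots, *Sat1* was higher at 1000 CPM or more of *Arg1* than below 250 CPM. It was at 339.2 CPM (317.3 to 362.3) against 275.6 CPM (262.6 to 289.1) in section 1. In section 2 it was at 276.9 CPM (259.7 to 294.9) against 221.6 CPM (210.1 to 233.6), and the groups between did not rise steadily in either section.

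**Figure D4:**
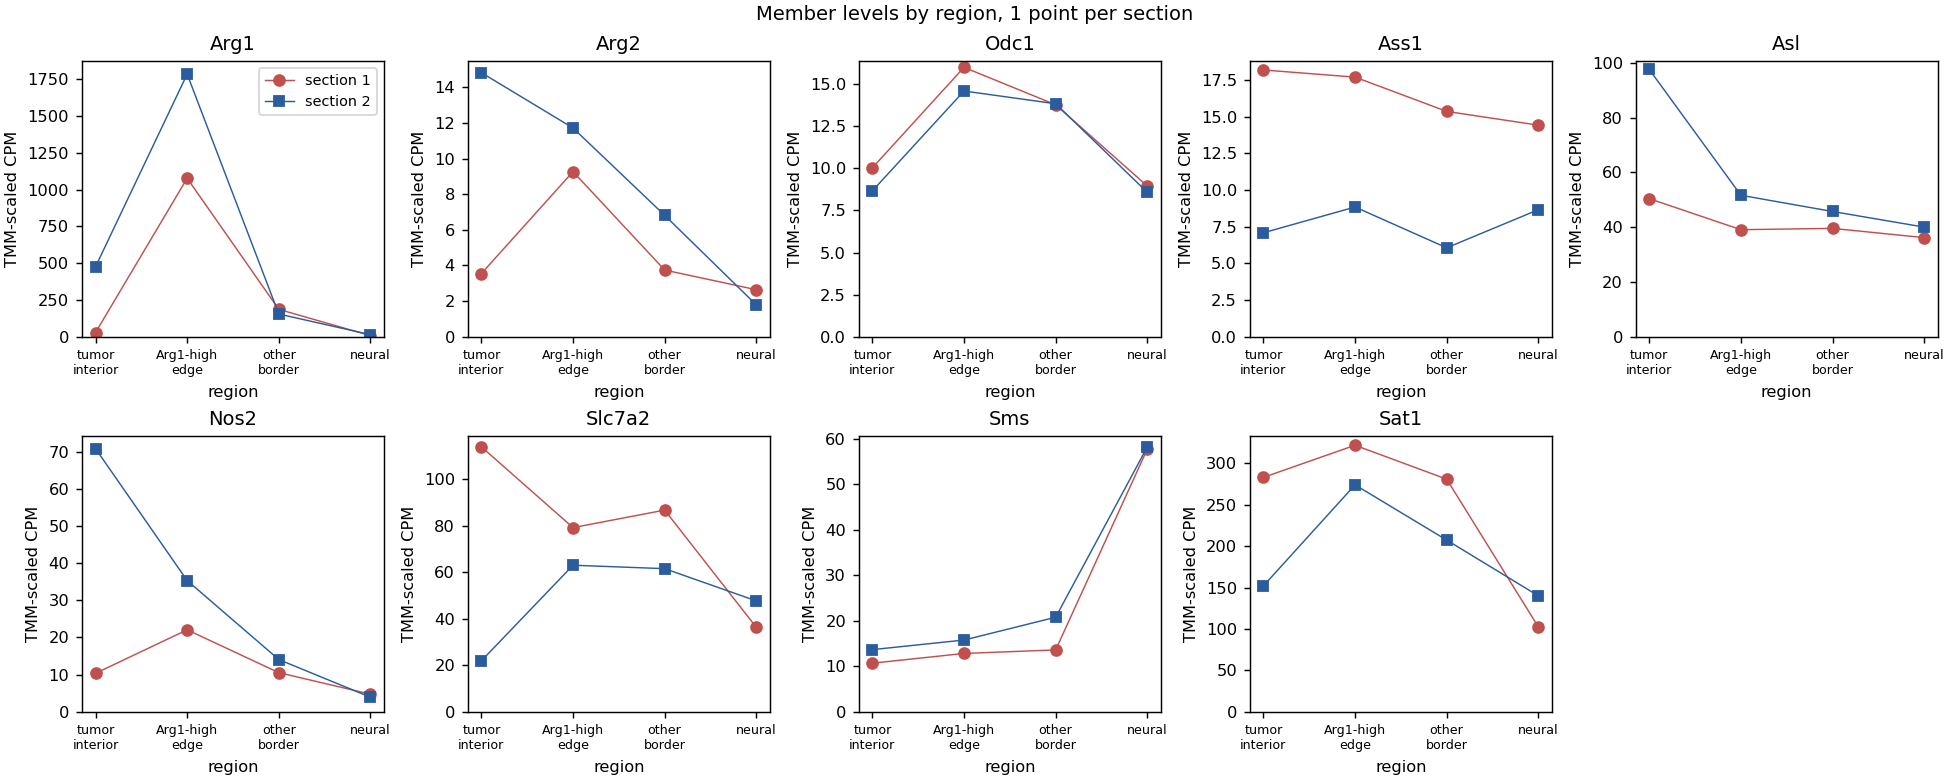
TMM-scaled CPM (vertical axis, from 0) of the 9 measured genes in the tumor interior, the Arg1-high edge, the other border spots and neural tissue (horizontal axis), with 1 point for each region of section 1 (red circles) and section 2 (blue squares) and no error bars, since each point is 1 sum. *Sms* was at 57.7 and 58.2 CPM in neural tissue and at 10.7 to 20.8 CPM elsewhere, *Sat1* and *Odc1* were highest at the edge in both sections, and in the tumor interior *Arg1*, *Nos2* and *Arg2* were higher in section 2 and *Slc7a2* in section 1.

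Counted over the genes tested, 3 of 8 passed between the edge and neural tissue, *Nos2* and *Sat1* upward and *Sms* downward, where 27.2% of all 19077 genes passed (13.5% higher and 13.7% lower). Between the tumor interior and neural tissue 4 of 9 passed, *Arg1*, *Asl* and *Nos2* upward and *Sms* downward, where 39.8% of all genes passed (20.4% higher and 19.4% lower). Both shares are near those of all genes and are no result about the set. The median log2 fold change of the genes tested was 0.74 and 0.78 in these comparisons, against -0.09 and -0.12 over all genes. Between the edge and the tumor interior 0 of 8 passed in edgeR, where 2.86% of all genes did (2.74% higher and 0.121% lower), with 2 at an unadjusted p under 0.05 (*Asl* and *Odc1*) and 0 in DESeq2. Between the whole border zone and neural tissue 2 of 9 passed (*Arg1* and *Sms*), where 10.5% of 19204 genes did (5.29% higher and 5.23% lower). Between that zone and the interior 0 of 9 passed in edgeR, where 2.48% did (2.47% higher and 0.0156% lower), with 1 at an unadjusted p under 0.05 (*Asl*) and 0 in DESeq2.

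Within the border zone, the edge and the other border spots did not differ by the test in any of the 8 genes. In edgeR 0 of 8 passed and 0 of 8 had an unadjusted p under 0.05, DESeq2 passed 0 of 8, and 0.0% of all genes passed in edgeR (8 in DESeq2, and 950 of 19077 at an unadjusted p under 0.05). The largest log2 fold changes of the 8 were those of *Nos2* with 1.19 ± 0.70, 2.05-fold in section 1 and 2.46-fold in section 2, and of *Arg2* with 1.05 ± 0.62, 2.30-fold and 1.67-fold. For *Nos2* and *Arg2* the sections gave the same direction at a size that this design of 2 sections could not tell from the spread between regions. The summed macrophage list was also higher, at 2627 CPM at the edge against 1950 CPM in the other border spots of section 1 and 1756 against 1016 CPM in section 2. Most of that rise was *Cd68*, at 1524 against 863.3 CPM in section 1 and 956.5 against 279.4 CPM in section 2. *Itgam* and *Fcgr1* were also higher at the edge in both sections, and *Aif1* and *Cd163* were lower in both. In section 1 *Adgre1* (34.4 against 33.5 CPM), *Mrc1* (23.9 against 22.5), *Csf1r* (228.6 against 227.5) and *Lyz2* (15.3 against 16.1) were near equal. In section 2 *Adgre1*, *Mrc1* and *Lyz2* were higher at the edge and *Csf1r* was lower. The direction of *Ms4a7* differed between the sections. The neutrophil list (134.1 against 81.7 CPM and 141.7 against 98.5 CPM) and the hypoxia list (1272 against 701.0 CPM and 1269 against 773.7 CPM) were likewise higher at the edge. All 7 neutrophil markers were above 0 in every region, as were the 7 hypoxia genes with probes. *S100a8*, *S100a9*, *Mmp8* and *Cxcr2* were higher at the edge in both sections, and *Csf3r* only slightly (44.8 against 43.1 CPM and 52.6 against 46.8 CPM). *Camp* was lower in both (0.84 against 1.08 CPM and 0.96 against 4.00 CPM) and *Retnlg* in section 1 only, both at few counts. The epithelial list was at 29.0 against 32.7 CPM in section 1 and at 6329 against 3371 CPM in section 2. The neural list was lower at the edge, at 5926 against 6944.5 CPM and 6433 against 10751 CPM. On the tumor side lay 147 of 240 edge spots and 131 of 346 other border spots of section 1, and 237 of 275 and 133 of 500 of section 2. The part of these lists and of the side of the border in the differences was not tested.

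The other genes of arginine and polyamine metabolism were 32 listed transporters, enzymes and regulators, of which 31 had probes and were tested. Against neural tissue, 6 of 31 were higher and 3 lower at the edge, with a median log2 fold change of -0.10. In the tumor interior 7 were higher and 4 lower, with a median of -0.12. These shares are close to those of all genes. Higher in both comparisons were *Pycr1* and *Aldh18a1*, which make proline, *Slc7a7* and *Slc3a2*, whose products form an exporter of cationic amino acids, *Gch1*, which makes the cofactor of nitric oxide synthases, and the polyamine transporter gene *Atp13a3*. Lower in both were *Nos1*, the neuronal nitric oxide synthase, and *Prodh*, which degrades proline. The antizyme gene *Oaz2* was called lower at the edge and not in the interior, whereas in the interior *Ddah2* was called higher and *Ddah1* and *Agmat* lower. Between the edge and the interior themselves 1 of the 31 passed, a share near the 2.86% of all genes (2.74% higher) and no result about the list. This gene was *Ddah1*, which degrades inhibitors of nitric oxide synthases, and it was higher at the edge than in the interior by 1.32 ± 0.18 on the log2 scale (edgeR adjusted p = 0.0261). *Ddah1* was at 102.6 and 97.4 CPM at the edge and at 41.9 and 37.9 CPM in the interior. It was at 108.8 and 114.8 CPM in the other border spots and at 113.0 and 143.1 CPM in neural tissue. Its level was thus low in the interior and not raised at the edge above the other border spots or neural tissue.

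*Pycr1* had 23.4 and 21.9 CPM at the edge, 36.7 and 32.1 CPM in the interior and 3.58 and 3.15 CPM in neural tissue. Its log2 fold change was 2.75 ± 0.34 at the edge (edgeR adjusted p = 0.00548) and 3.35 ± 0.35 in the interior (adjusted p = 0.00139). *Slc7a7* was at 67.4 and 35.7 CPM at the edge and 7.36 and 8.69 CPM in neural tissue, a log2 fold change of 2.53 ± 0.40 (edgeR adjusted p = 0.00891). Both genes were thus above neural tissue at the edge in each section. In the other border spots *Pycr1* was at 24.997 and 11.03 CPM, above the edge in section 1 and below it in section 2, and *Slc7a7* at 59.0 and 26.5 CPM, below the edge in both, and neither difference passed the test. *Nos1* had 14.7 and 16.3 CPM at the edge, 3.86 and 3.54 CPM in the interior and 45.2 and 82.9 CPM in neural tissue, with log2 fold changes of -1.98 ± 0.36 (edgeR adjusted p = 0.0131) and -4.02 ± 0.39 (adjusted p = 0.00117). *Agmat*, the agmatinase that makes putrescine from agmatine, fell by 2.42 ± 0.43 on the log2 scale in the interior (edgeR adjusted p = 0.00752), from 9.94 and 6.60 CPM in neural tissue to 1.68 and 1.40 CPM.

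The genes whose profile across the border was most like that of *Arg1* were not among the arginine and polyamine genes. Over 9706 genes with a mean of at least 20 CPM, profiles of log2(CPM + 1) were correlated with that of *Arg1* over 66 distance bins of section 1 and 70 of section 2, and genes were ranked by the lower of the 2 values. The first 5 were *Mmp12*, the macrophage elastase (Pearson r of 0.83 and 0.91), *Gpnmb* (0.78 and 0.78), the cathepsin gene *Ctsd* (0.77 and 0.87), the lactate transporter gene *Slc16a3* (0.76 and 0.81) and *Card19* (0.74 and 0.76). Of the arginine and polyamine genes with that mean, *Sat1* ranked 2521 (0.53 and 0.15), *Asl* 4434 (-0.11 and 0.37), *Slc7a2* 5801 (0.30 and -0.35) and *Sms* 7762 (-0.37 and -0.76). *Nos2*, *Arg2*, *Odc1* and *Ass1* were below 20 CPM averaged over the sections and were not ranked. Bins of 1 section are neighbors in 1 tissue and share its depth gradient, from a median of 56628 and 41127 UMIs per spot in the interior to 7154 and 9433 in neural tissue, so these values are descriptions.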

How the data were processed

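Spatial gene expression was measured in 2 mouse cerebellum sections. Per the labels and the submitters' processing notes, the authors aligned reads to mm10 with Space Ranger 2.1.1 and deposited UMI counts per gene and spot for each section, without normalization, and these counts were used as deposited. Spots with fewer than 500 UMIs or 10 genes were left out, as in the study's methods. A score of tumor (epithelial and stromal) over neural markers, averaged with neighboring spots, was divided by Otsu's threshold in each section, and connected groups of fewer than 50 spots were left out, so that with the spots under the minimum 95 and 92 spots were not used. The 10 genes, the lists and the region rules were chosen with earlier results of these data known.

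UMIs were summed per region and section and tested in R 4.3.3 with edgeR 4.0.16 (TMM factors, filterByExpr, glmQLFit and glmQLFTest, section as a block, adjusted p under 0.05). Regions of a section come from 1 mouse, which pairs them, and a common dispersion of 0.0784 with this block stood against 0.158 without. These dispersions are of the fit of 8 sums, in which 3 residual degrees of freedom remained. The whole border zone was tested in a separate fit of 3 regions per section. That fit had a common dispersion of 0.0955 and fewer residual degrees of freedom. In both fits p-values measure only the spread among the sums of 2 sections. The depth of 5605964 to 31392008 UMIs per sum sets the counting error, given as 95% exact Poisson or exact binomial intervals, with the limit for a count of 0 taken from 3 counts. The edgeR step was run on simulated data in which, apart from the added changes, a gene had the same mean in every sum and all genes the same dispersion. The sections here differ far more, so that run checks the code and not how the test behaves on these data. Alternatives were DESeq2 1.42.0, RLE factors, library size as the only scaling, no filter on low counts, no block, each section left out, *Arg1* thresholds of 250 and 1000 CPM, a border from the neural list alone, border zones of 3 and 8 steps and at least 1000 UMIs per spot. Other steps used Python 3.11.15, numpy 2.4.6, scipy 1.17.1, pandas 2.3.3, scikit-image 0.26.0 and matplotlib 3.10.9.

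All 10 genes were described. Of the pathway list, values were given for the 3 genes with the largest absolute log2 fold change among those called at the edge and in the interior against neural tissue. *Ddah1* was named in addition after its value was seen. Genes with profiles like *Arg1* were the first 5 by the lower Pearson r of the sections.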

Additional observations from a re-analysis of the deposited data

How the results depend on the processing

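Of 627 log2 fold changes of single genes under alternative settings, 560 kept their direction and their side of the threshold or moved by less than the spread, 16 lost a call, 8 gained one, 15 moved and 28 changed sign. The cause of these changes was not tested. Between the edge and neural tissue, the 3 genes called became 1 with no replicate block, 1 with the border from the neural list alone, 5 with DESeq2 and 5 with an *Arg1* threshold of 1000 CPM. Between the whole border zone and neural tissue, the 2 called became 1 with no replicate block, 1 with the border from the neural list alone and 1 with 8 steps. The calls that the block or its absence changed were those of *Nos2* and *Sat1* at the edge, *Asl* in the interior and *Arg1* in the border zone against neural tissue. *Nos2* was also lost at the edge with RLE factors (2.70), library size only (2.43), 250 CPM (2.41), the neural list alone (2.43), 3 steps (2.61) and 8 steps (2.70). *Arg2* was gained in the interior with DESeq2 (1.95), and *Nos2* in the whole border zone against neural tissue with DESeq2 (2.02).

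Leaving out a section leaves no residual degrees of freedom, so these values carry no test. Between the edge and the interior they ranged from -0.99 to 1.06 for *Nos2*, from -0.52 to 1.503 for *Slc7a2*, from -0.33 to 1.27 for *Arg2* and from -0.038 to 0.30 for *Ass1*. Between the interior and neural tissue they ranged from -1.10 to 1.64 for *Slc7a2* and from -0.27 to 0.32 for *Ass1*, and without section 2 the called *Nos2*, *Arg1* and *Asl* fell to 1.06, 1.95 and 0.47. Between the edge and the other border spots they ranged from -0.13 to 0.034 for *Slc7a2* and from -0.017 to 0.17 for *Asl*, and between the border zone and neural tissue from -0.29 to 0.15 for *Ass1*. Between the border zone and the interior they ranged from -0.45 to 1.46 for *Slc7a2*, from -1.70 to 0.48 for *Nos2* and from -0.77 to 0.62 for *Arg2*.

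Other changes of sign were in genes without a call. With library size only, *Ass1* was at -0.015 at the edge and -0.28 in the interior against neural tissue and at 0.11 in the border zone against the interior, *Odc1* at -0.21 in the interior against neural tissue, and *Asl* at -0.025 at the edge against the other border spots. With the border from the neural list alone, *Odc1* was at -0.16 in the interior and *Ass1* at 0.011 in the border zone against neural tissue, and *Asl*, *Slc7a2* and *Sms* at -0.24, 0.12 and 0.12 at the edge against the other border spots. In that last comparison *Slc7a2* and *Sms* were at 0.071 and 0.041 with 1000 CPM, *Slc7a2* at 0.076 with 3 steps and *Asl* at -0.079 with 8 steps. *Ass1* was at -0.031 in the interior against neural tissue with 8 steps and at 0.0029 in the border zone against neural tissue with no replicate block.

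Over all genes, the 5192 calls between the edge and neural tissue became 3290 with no block. The 546 between the edge and the interior became 1303 with DESeq2, 0 with no block and 899 with 3 steps. The 0 between the edge and the other border spots became 8 with DESeq2. The 2019 between the border zone and neural tissue became 4108 with DESeq2, 1339 with no block and 3523 with the neural list alone, and the 477 between the border zone and the interior became 1366 with DESeq2 and 0 with the neural list alone. Library size only moved the median of all genes to -0.26 at the edge and -0.42 in the interior against neural tissue, and the higher and lower calls there to 2167 and 3181 (from 2574 and 2618) and to 2708 and 5306 (from 3889 and 3698).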

Other observations

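Lists of other cell types differed between the regions in which the arginine and polyamine genes were read. The microglia list was at 1526 and 1195 CPM at the Arg1-high edge and at 386.3 and 599.0 CPM in neural tissue. The T cell list was at 398.5 CPM in the interior of section 1 and 18.3 CPM in that of section 2, and at 135.6 and 34.4 CPM at the edge. The erythrocyte list was at 28.6 and 129.1 CPM at the edge against 9.59 and 9.03 CPM in neural tissue. Of the alternative activation list, 2 of 8 genes (*Il4ra* and *Stat6*) were called higher at the edge than in neural tissue, where the summed list was at 396.7 and 339.2 CPM against 51.8 and 90.3 CPM. In this comparison 13.5% of all genes were called higher, so that 2 of 8 is no result about the list. *Il4ra* (283.0 and 207.4 CPM) and *Stat6* (70.6 and 66.5 CPM) made up most of the summed list at the edge. *Mrc1*, *Clec10a* and *Chil3* were also higher at the edge than in neural tissue in both sections. *Retnla* and *Cd163* were lower in both, and *Mgl2* was lower in section 1 only. Several of these rest on few counts: in sections 1 and 2 the edge held 14 and 5 UMIs of *Chil3*, 5 and 6 of *Retnla* and 9 and 25 of *Cd163*. In the tumor interior the summed list was at 557.8 and 246.4 CPM, above the edge in section 1 and below it in section 2. Of the neutrophil list 4 of 7 genes (*Cxcr2*, *Mmp8*, *S100a8* and *S100a9*) were called higher at the edge, and of the macrophage list 6 of 10, beside the same 13.5% of all genes.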
